A study of Mus musculus with 24 samples.

Results

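The genes described here form the cholesterol and fatty acid synthesis module that is controlled by the sterol regulatory element-binding proteins (SREBPs). They were 33 genes, chosen by name, of the 33034 genes in the table. The sterol branch held 18 of them, the fatty acid branch 9, and the third set held 5 SREBP regulators and the sterol carrier Stard4. All 33 had an entry and passed the filter on low counts, and all were read in every library. RNA was sequenced from MOVAS cells, a line derived from mouse aortic smooth muscle, in 24 libraries that formed 8 groups of 3. The edited backgrounds were Adam9-KO, cells edited at the gene of the membrane-anchored metalloprotease ADAM9, and Rosa26-KO, cells edited at the Rosa26 locus, which is commonly used as a control for editing. The unedited backgrounds were ADAM9i, WT cells given an ADAM9 inhibitor, and WT cells without it. Each background received rhCTHRC1, recombinant human CTHRC1, a secreted collagen triple-helix repeat protein, or vehicle. The labels name neither the inhibitor nor a dose or a time, and do not say whether an edited line was a single clone or whether the libraries of a group came from separate cultures. The p-values therefore measure only the spread between these libraries, which may be technical.

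SREBP-2, the product of Srebf2, mainly drives the genes of cholesterol synthesis, and the SREBP-1 proteins made from Srebf1 mainly drive those of fatty acid synthesis. Both are made as membrane proteins of the endoplasmic reticulum. When sterols are scarce the escort protein SCAP carries them to the Golgi, where they are cut to release the active factor, and when sterols are plentiful the INSIG proteins retain SCAP. Insig1 is itself an SREBP target, and Srebf1 is also a target of the oxysterol-sensing liver X receptors (LXR), so the members do not all answer to a single input.

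Each library held between 53135752 and 65833125 counts in genes. Adam9, the targeted gene, was at 136 to 146 and 130.1 to 149.8 CPM in the Adam9-KO libraries with rhCTHRC1 and vehicle, and at 277 to 295 and 229 to 241 CPM in those of Rosa26-KO. CPM are counts brought to a common library size, with TMM scaling factors. Under vehicle it was lower but not absent in Adam9-KO (log2 difference -0.78 ± 0.05, edgeR adjusted p = 3.59e-08), and gene counts do not read the edit. In ADAM9i cells it was at 206 ± 13.9 and 164 ± 6.48 CPM, and in WT cells at 291 ± 36.5 and 249 ± 35.3 CPM (rhCTHRC1 and vehicle, SD, n = 3). Of the contractile smooth muscle markers, Acta2 was read at a mean of 40.6 to 469 CPM over the groups, while Myh11 was below 1 CPM in every group mean. All 5 adipocyte and all 4 hepatocyte markers, which would mark other lipid-making cells, were below 1 CPM in every group. The 3 WT vehicle libraries stood apart from the others: on the first principal component, with 24.9% of the variance, they lay from -119.3 to -114.5, and the other 21 libraries from -7.2 to 54.3. The members' responses to rhCTHRC1 that rest on them are given below also with other vehicle libraries.

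Within the module, levels per gene length spanned a wide range. In Rosa26-KO vehicle cells the desaturase gene Scd2 was highest, at 345 ± 13.1 FPKM (fragments per kilobase of gene, scaled to depth by the authors, SD, n = 3). Insig1 followed at 110.2 ± 1.39 FPKM and Acat2, the cytosolic thiolase that makes acetoacetyl-CoA, at 110.1 ± 3.13 FPKM, and these neighbours did not differ beyond their spread. Srebf2 was at 93.0 ± 2.94 FPKM, against 23.8 ± 0.660 FPKM for Srebf1. The lowest members were Acss2, which makes acetyl-CoA from acetate, at 1.76 ± 0.149 FPKM, and Tm7sf2, a sterol reductase, at 3.07 ± 0.0641 FPKM. Even Tm7sf2 in the WT vehicle libraries, where it was lowest, was read at 225 counts or more a library. Scd1 and Scd2 are related genes and may share reads, and whether counting used strand is not given in the sources used here.

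Of the 33 members, 26 had at least 1 RefSeq promoter window (250 bases before to 50 after a gene start, GRCm38.p6, the build family of the table). Fdps, Fdft1, Sqle, Scd1, Scd2, Fads1 and Stard4 are named only. The windows were searched on both strands for CCAAT, the motif of NF-Y, which is known to bind beside SREBP, for GGGCGG, a GC box, and for TCACNCCAC, a type of sterol response element. CCAAT was in a window of 21 of the 26 members (80.8%), and in 41.1% of 27025 genes with a window. GGGCGG was in 22 of the 26 members (84.6%), against 38.2% of genes. TCACNCCAC was in 1 of the 26, Hmgcs1, against 1.44% of genes. A match is a description of letters and not a site, and members with several starts have several windows. The 27025 genes were not limited to those read in these cells, so their shares are not matched to the members. The stretches below lie upstream of the annotated start, 5′ to 3′ on the gene's strand, with CCAAT (read as ATTGG on the other strand) and the TCACNCCAC match in capitals. Hmgcs1 is shown for its sterol element and Fasn for the fatty acid branch. Tm7sf2 is shown as the sterol gene with the largest rise in Rosa26-KO cells and Insig1 as the regulator with the largest rise there. Mvk, with 5 CCAAT matches, and Scap, with none, are members that did not pass the test in Rosa26-KO cells.
Hmgcs1, chr13:119690101-119690350, + strand: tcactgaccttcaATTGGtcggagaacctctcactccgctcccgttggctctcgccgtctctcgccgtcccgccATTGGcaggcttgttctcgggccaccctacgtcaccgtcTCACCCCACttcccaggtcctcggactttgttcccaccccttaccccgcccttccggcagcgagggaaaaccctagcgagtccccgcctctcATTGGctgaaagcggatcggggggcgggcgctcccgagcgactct
Mvk, chr5:114444019-114444268, + strand: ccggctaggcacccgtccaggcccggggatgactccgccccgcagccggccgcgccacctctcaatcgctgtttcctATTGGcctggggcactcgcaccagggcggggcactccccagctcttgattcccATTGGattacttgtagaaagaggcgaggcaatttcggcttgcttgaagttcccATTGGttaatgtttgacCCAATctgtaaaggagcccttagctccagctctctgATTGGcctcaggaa
Tm7sf2, chr19:6067851-6068100, - strand: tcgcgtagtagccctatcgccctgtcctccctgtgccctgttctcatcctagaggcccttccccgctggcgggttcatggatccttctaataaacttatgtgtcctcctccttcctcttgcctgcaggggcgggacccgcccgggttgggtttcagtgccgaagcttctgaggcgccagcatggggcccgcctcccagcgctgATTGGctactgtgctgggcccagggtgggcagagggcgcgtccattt
Insig1, chr5:28071162-28071362, + strand: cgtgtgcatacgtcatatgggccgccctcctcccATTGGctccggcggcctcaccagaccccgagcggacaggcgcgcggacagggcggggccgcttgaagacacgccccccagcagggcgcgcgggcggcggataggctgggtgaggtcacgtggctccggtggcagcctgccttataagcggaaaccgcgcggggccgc
Fasn, chr11:120824548-120824797, - strand: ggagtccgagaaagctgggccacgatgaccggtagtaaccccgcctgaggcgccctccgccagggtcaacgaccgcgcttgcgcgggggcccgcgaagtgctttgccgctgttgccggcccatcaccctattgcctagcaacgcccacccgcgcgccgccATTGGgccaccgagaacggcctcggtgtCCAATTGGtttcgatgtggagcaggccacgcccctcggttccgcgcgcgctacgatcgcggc
Scap, chr9:110333038-110333287, + strand: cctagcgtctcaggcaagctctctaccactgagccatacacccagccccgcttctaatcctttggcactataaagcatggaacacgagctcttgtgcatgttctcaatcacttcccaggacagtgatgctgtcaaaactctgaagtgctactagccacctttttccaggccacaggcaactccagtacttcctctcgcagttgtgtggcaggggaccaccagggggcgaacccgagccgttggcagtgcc

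In Fasn 2 matches on opposite strands overlap. Of the 44 CCAAT matches in members' windows, 27 began within 100 bases upstream of the start, in 17 genes. Positions were not counted for other genes, so whether this placement is particular to the members was not tested. Of these 17 genes, Mvk, Idi1, Ebp and Insig2 did not pass the test in Rosa26-KO cells. The other genes of the 17 passed it, as did 27 of all 33 members. Acat2, Elovl6, Acaca and Fads2 carry no CCAAT match in their windows and passed, while Scap, also without one, did not. No match says only that these letters are not in the window. The map of matches shows both kinds side by side.

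**Figure D1:**
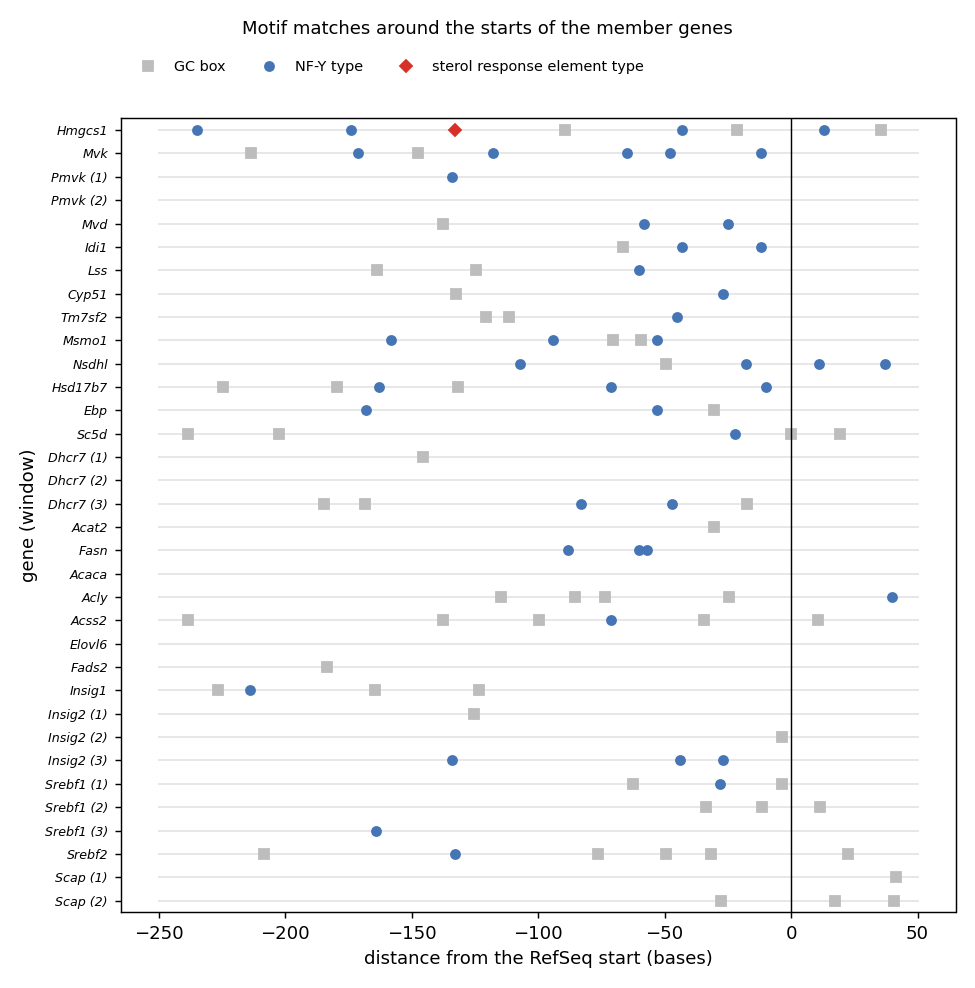
Motif matches around the starts of 26 members. The horizontal axis is the distance in bases from the RefSeq start, each line is 1 window, and symbols mark CCAAT-type (NF-Y), GC box and sterol response element type matches on either strand. The sterol response element type occurs once, in Hmgcs1, and most CCAAT-type matches lie within 100 bases upstream of the start. Positions in other genes were not counted.

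Most of the module rose with rhCTHRC1 in Rosa26-KO cells. Of 33 members 27 were higher and 0 lower, where 22% of 18594 genes tested were higher and 23.3% lower (edgeR quasi-likelihood test, Benjamini-Hochberg adjusted over all genes, threshold 0.05). The members' median log2 change was 0.40, that of all genes tested 0.03. The summed level of the module was 14099 ± 609.8 CPM with rhCTHRC1 and 10144 ± 143 CPM with vehicle (SD, n = 3). All 9 fatty acid genes rose, 14 of the 18 sterol genes and 4 of the 6 regulators. In bulk RNA, more cells of a kind and more RNA per cell cannot be told apart. In the same libraries Hspa5, an endoplasmic reticulum chaperone, fell by 0.85 on the log2 scale, the stress gene Chac1 fell by 2.24, the proliferation marker Mki67 fell by 0.32, and the summed smooth muscle markers were 122 to 125 CPM with rhCTHRC1 and 513 to 533 CPM with vehicle. The endothelial markers summed to 7.15 to 7.81 CPM with rhCTHRC1 and to 2.46 to 2.99 CPM with vehicle, with Cdh5 at 0 counts in both. Their part in the members' changes was not tested.

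The sterol branch did not rise evenly in Rosa26-KO cells. Tm7sf2, a reductase late in the pathway, had the largest change of any member: 54.7, 50.3 and 46.0 CPM with rhCTHRC1, against 15.6, 15.1 and 15.1 CPM with vehicle, a log2 change of 1.72 ± 0.08 (adjusted p = 3.38e-12). The groups did not overlap. Mvd, which decarboxylates mevalonate diphosphate, was at 165, 157 and 149 CPM with rhCTHRC1 and at 96.7, 91.0 and 90.8 CPM with vehicle (log2 0.76 ± 0.05, adjusted p = 4.19e-10). Dhcr7, which makes the last double-bond reduction to cholesterol, rose by 0.69, Lss, which closes the sterol ring, by 0.60, Pmvk, a mevalonate pathway kinase, by 0.56 and the dehydrogenase gene Nsdhl by 0.49 on the log2 scale. Hmgcs1, which commits acetyl units to mevalonate, was at 460.1, 452 and 447 CPM with rhCTHRC1 and 335, 331 and 346 CPM with vehicle, a log2 change of 0.43. Neighbouring steps did not follow. Mvk, the kinase just before Pmvk, was at 98.4, 93.1 and 87.9 CPM with rhCTHRC1 and 93.3, 95.3 and 91.9 CPM with vehicle, so its groups overlapped, and its log2 change was -0.01 ± 0.04. Idi1, the isomerase after Mvd, had -0.01 ± 0.06, Fdft1, the squalene synthase, 0.08 ± 0.04 and Ebp, a sterol isomerase, 0.10 ± 0.05, and none of these 4 passed the test, although Fdft1 and Ebp did when only library size was used for scaling. Sqle, the squalene epoxidase, and Cyp51, the lanosterol demethylase, passed with changes of 0.10 and 0.11. Without Rosa26-KO rhCTHRC1 replicate 1 both calls were lost, and that of Sqle also without Rosa26-KO rhCTHRC1 replicate 2 or vehicle replicate 1 or 3.

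The fatty acid branch was led by an acetyl-CoA supplier and a desaturase. Acss2 was at 47.8, 43.9 and 48.8 CPM with rhCTHRC1, against 22.0, 18.8 and 19.4 CPM with vehicle, a log2 change of 1.22 ± 0.08 (adjusted p = 4.35e-10). Scd1, which introduces the double bond of oleate, was at 730.1, 687 and 681 CPM with rhCTHRC1 and 359.6, 378 and 369.9 CPM with vehicle (log2 0.92 ± 0.03, adjusted p = 1.12e-13). In both genes every treated library was above every vehicle library. Scd2 rose by 0.65 and Fads1, a desaturase of polyunsaturated fatty acids, by 0.59 on the log2 scale. The central synthesis genes rose less: Acly, which makes cytosolic acetyl-CoA from citrate, by 0.47, Fasn, the fatty acid synthase, by 0.42, Fads2 by 0.40 and Acaca, which makes malonyl-CoA, by 0.31. The elongase gene Elovl6 had the smallest rise, 0.18.

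Among the regulators the paralogs parted. Insig1 was at 904, 884 and 828 CPM with rhCTHRC1 and at 385, 383 and 379 CPM with vehicle, a log2 change of 1.19 ± 0.03 (adjusted p = 4.55e-15). Insig2 was at 47.6, 46.0 and 47.5 CPM with rhCTHRC1 and 44.9, 41.2 and 47.0 CPM with vehicle, its groups overlapped, and its change was 0.08 ± 0.07 (adjusted p = 0.369). Srebf1 was at 283, 278 and 270.4 CPM with rhCTHRC1, against 154, 150.0 and 147 CPM with vehicle (log2 0.88 ± 0.03, adjusted p = 5.66e-13). Srebf2 moved far less, with 856, 836 and 816 CPM with rhCTHRC1 and 761, 761 and 725 CPM with vehicle (log2 0.16 ± 0.03, adjusted p = 1.02e-04). Stard4 rose by 0.26, and Scap, at -0.03 ± 0.04, did not pass the test. Gene counts do not read the processing or location of the SREBP proteins.

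**Figure D2:**
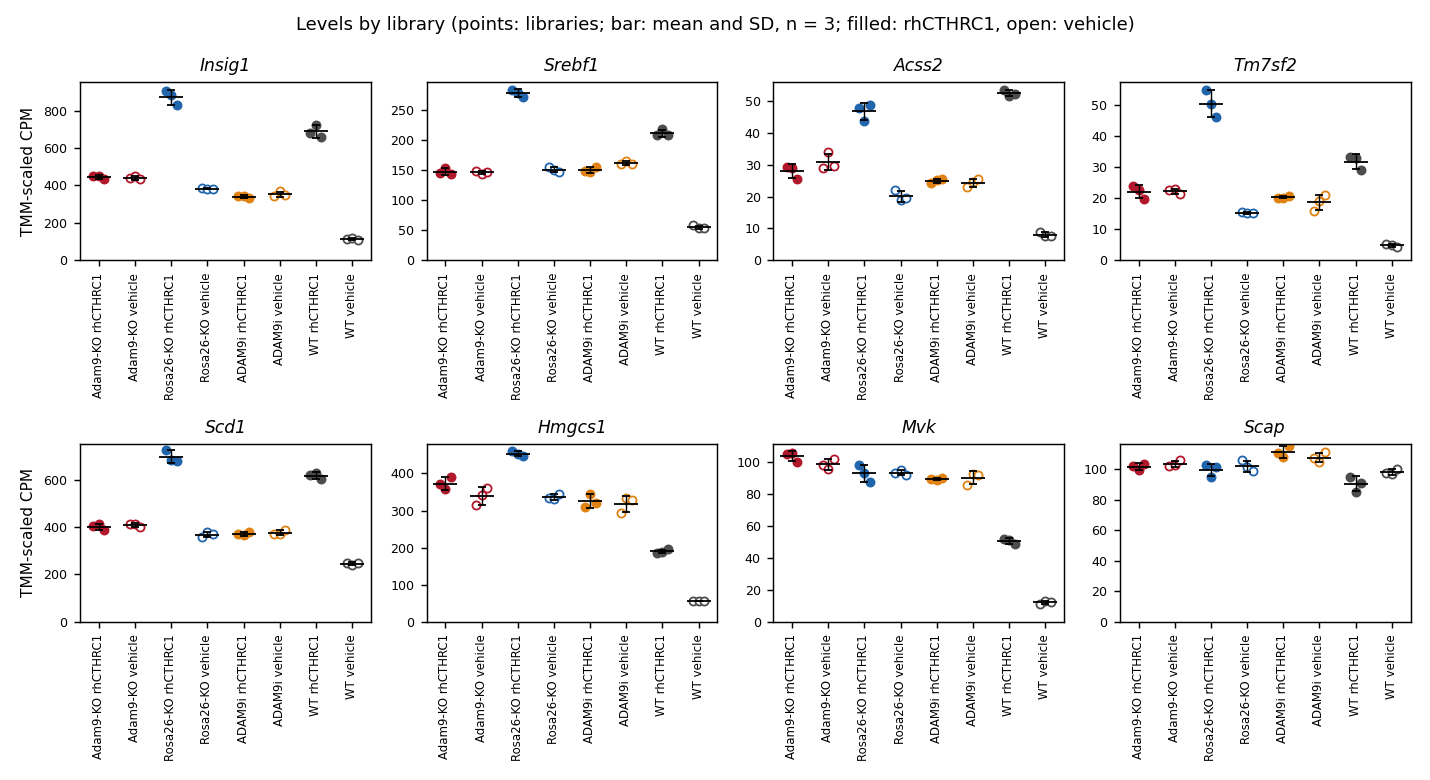
TMM-scaled CPM of 8 members in every library, by group. Points are libraries (filled for rhCTHRC1, open for vehicle), and the bar and whiskers are the mean and SD of 3. Insig1, Srebf1, Acss2, Tm7sf2 and Scd1 stand highest in the rhCTHRC1 libraries of Rosa26-KO and WT, Hmgcs1 and Mvk are low in WT with either treatment, and Scap is nearly level.

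In Adam9-KO cells no member passed the test with rhCTHRC1, which does not show that none changed. The count was 0 higher and 0 lower of 33, where 0% of all genes tested were higher and 0% lower in the edgeR test. Of the members 6 had an unadjusted p under 0.05, and DESeq2 and limma also called 0 members. Over all genes DESeq2 called 13 higher and 24 lower. The summed level was 10739.7 ± 80.6 CPM with rhCTHRC1 and 10431 ± 197 CPM with vehicle. Each rhCTHRC1 library, at 10676 to 10830 CPM, was above each vehicle library, at 10277 to 10653 CPM. The members' log2 changes ran from -0.13 (Acss2, SE 0.08) to 0.18 (Insig2, SE 0.07), with a median of 0.05. Insig1 was at 450.1, 452 and 433 CPM with rhCTHRC1 and 438, 449 and 432 CPM with vehicle, and these overlapped (log2 0.02 ± 0.03, adjusted p = 0.922). Srebf1, at 145, 153 and 143 CPM with rhCTHRC1 and 148, 143 and 146 CPM with vehicle, overlapped as well (log2 0.02 ± 0.03, adjusted p = 0.948). Srebf2 had 0.01 ± 0.03 (adjusted p = 0.966) and Insig2 0.18 ± 0.07 (adjusted p = 0.594).

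The difference between these responses was tested directly, as the interaction of Adam9-KO minus Rosa26-KO. It was lower than 0 for 24 members and higher for 0, where 17.8% and 20.1% of all genes were. These 24 were 12 of the 18 sterol genes, 8 of the 9 fatty acid genes and 4 of the 6 regulators. Differences of the log2 responses were -1.72 ± 0.11 (adjusted p = 7.28e-10) for Tm7sf2, -1.36 ± 0.11 (adjusted p = 2.27e-08) for Acss2 and -1.17 ± 0.04 (adjusted p = 1.83e-12) for Insig1. Scd1 had -0.94 ± 0.05 (adjusted p = 2.66e-11), Srebf1 -0.86 ± 0.05 (adjusted p = 2.63e-10) and Dhcr7 -0.71 ± 0.08 (adjusted p = 1.23e-06). The 9 members without a called difference were Mvk, Idi1, Fdft1, Sqle, Cyp51, Ebp, Elovl6, Insig2 and Scap, whose log2 changes in Rosa26-KO cells lay between -0.03 and 0.18.

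With vehicle alone, part of the module was already higher in Adam9-KO cells. Of 33 members 11 were higher than in Rosa26-KO vehicle cells and 0 lower, where 6.37% of genes were higher and 8.83% lower. The differences were smaller than the same genes' responses in Rosa26-KO cells. Acss2 was at 29.1, 33.9 and 29.8 CPM in Adam9-KO, against 22.0, 18.8 and 19.4 CPM in Rosa26-KO (log2 0.61 ± 0.08, adjusted p = 7.81e-05), and Tm7sf2 at 22.4, 22.8 and 21.3 CPM in Adam9-KO, against 15.6, 15.1 and 15.1 CPM in Rosa26-KO (log2 0.53 ± 0.08, adjusted p = 2.11e-04). Neither gene overlapped between the backgrounds. Dhcr7 differed by 0.27 ± 0.06, Insig1 by 0.19 ± 0.03, Lss by 0.18 ± 0.04 and Fads1 by 0.17 ± 0.04, and the other 5 were Mvd, Fdps, Nsdhl, Acat2 and Scd1. The call of Mvd was lost without Adam9-KO vehicle replicate 1 or 3 or Rosa26-KO vehicle replicate 2 or 3, and that of Acat2 without Adam9-KO vehicle replicate 3 or Rosa26-KO vehicle replicate 1 or 3. Srebf1 did not pass (-0.06 ± 0.03). With rhCTHRC1 in both, 27 members were lower and 1 higher in Adam9-KO than in Rosa26-KO cells, where 19.6% of genes were lower and 21% higher. Tm7sf2 differed by -1.20 ± 0.07, Insig1 by -0.98 ± 0.03, Srebf1 by -0.92 ± 0.03, Scd1 by -0.81 ± 0.03, Acss2 by -0.75 ± 0.08 and Scd2 by -0.58 ± 0.03. The 1 higher member was Mvk (log2 0.15 ± 0.04, adjusted p = 0.00764), a call that was lost without Rosa26-KO rhCTHRC1 replicate 3. These comparisons share libraries with the responses above.

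**Figure D3:**
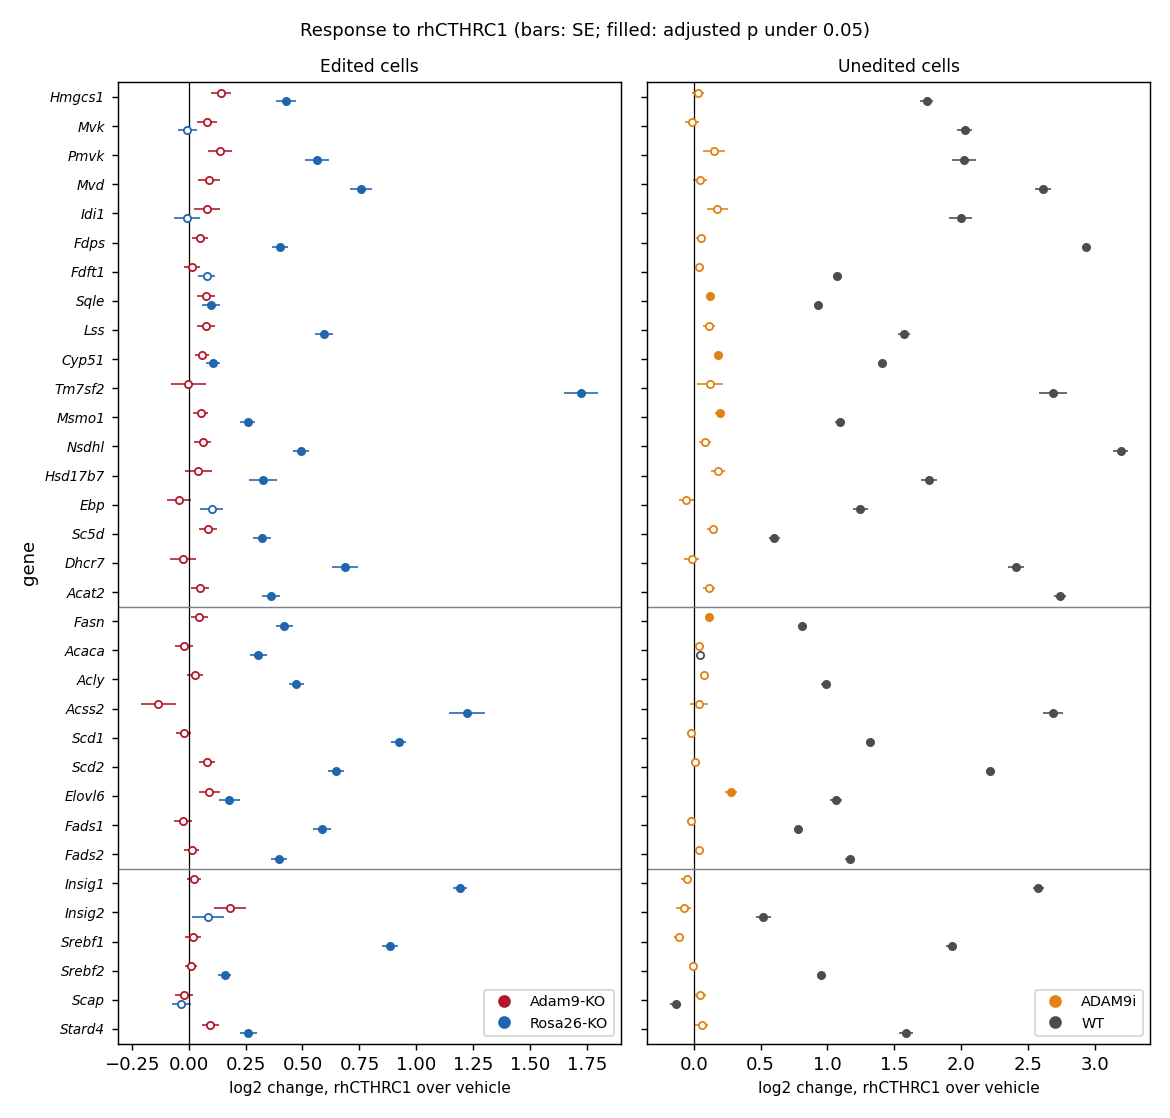
Log2 change with rhCTHRC1 over vehicle for the 33 members, in edited cells (left) and unedited cells (right). Points are estimates, bars are SE, and filled points passed the adjusted threshold. Adam9-KO points stay near 0 while Rosa26-KO points reach 1.72 at Tm7sf2, and ADAM9i points reach 0.28 at Elovl6 while WT points reach 3.19 at Nsdhl.

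In ADAM9i cells 5 members rose with rhCTHRC1 and 0 fell, where 2.66% of 18816 genes tested were higher and 1.32% lower. They were not the members that led in Rosa26-KO cells. Elovl6 was at 136, 148 and 147 CPM with rhCTHRC1, against 116, 117 and 123 CPM with vehicle (log2 0.28 ± 0.04, adjusted p = 0.00134). Msmo1, a methylsterol oxidase, was at 471, 458 and 451 CPM with rhCTHRC1 and 396, 391 and 418 CPM with vehicle (log2 0.20 ± 0.04, adjusted p = 0.00393). Neither gene's groups overlapped, and both changes were small. Cyp51 rose by 0.18 ± 0.03, Sqle by 0.12 ± 0.03 and Fasn by 0.12 ± 0.03 on the log2 scale. The call of Sqle was lost when ADAM9i rhCTHRC1 replicate 1 or 3 or any of the 3 vehicle replicates was left out, and that of Fasn without rhCTHRC1 replicate 1 or 3 or vehicle replicate 2 or 3. Insig1 was at 341, 346 and 334 CPM with rhCTHRC1 and 342, 369 and 349.5 CPM with vehicle (log2 -0.05 ± 0.04, adjusted p = 0.563), and these overlapped. Srebf1 had -0.11 ± 0.04 (adjusted p = 0.146), Srebf2 -0.0023 ± 0.03 (adjusted p = 0.986) and Insig2 -0.08 ± 0.05 (adjusted p = 0.585). With the WT vehicle libraries left out of the fit, an alternative chosen after seeing the data, 6 members were higher, Acat2 being the sixth, and DESeq2 called 7. In the same libraries Hspa5 rose by 0.33 ± 0.03 and Chac1 by 0.27 ± 0.06 on the log2 scale, and Mki67 fell by 0.13. The 7 smooth muscle markers summed to 475 to 517 CPM with rhCTHRC1 and to 562 to 597 CPM with vehicle. Their part in the members' changes was not tested.

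The ADAM9i response was then set against that of Rosa26-KO. This contrast holds no WT vehicle group, although its fit used all 24 libraries. Here the inhibitor, the edit and any difference in handling between the pairs of backgrounds cannot be told apart. The difference of responses was lower in ADAM9i for 22 members and higher for 0, where 16.4% of 19891 genes were lower and 19.1% higher. It was -1.60 ± 0.13 (adjusted p = 3.23e-11) for Tm7sf2, -1.24 ± 0.05 (adjusted p = 2.53e-17) for Insig1 and -1.18 ± 0.11 (adjusted p = 3.90e-10) for Acss2. Srebf1 had -0.99 ± 0.05, Scd1 -0.94 ± 0.04 and Mvd -0.71 ± 0.08. With the WT vehicle libraries left out of the fit, an alternative chosen after seeing the data, 0 of the 22 calls were lost. Under vehicle the same backgrounds were closer, with 7 members higher and 3 lower in ADAM9i, where 7.31% and 7.92% of genes were. The largest of these were Insig2 (0.33 ± 0.06) upwards and Elovl6 (-0.18 ± 0.05) downwards. The 7 became 2 without Rosa26-KO vehicle replicate 3, 3 without ADAM9i vehicle replicate 3, and 4 without replicate 2 of either group.

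In WT cells rhCTHRC1 was followed by a rise of nearly the whole module over the WT vehicle libraries. Of 33 members 31 were higher and 1 lower, where 32.2% of genes were higher and 30.8% lower. At least 2-fold changes were seen in 24 called members, but the share of all genes with such a change was not counted. The median log2 change was 1.58, and 0.03 over all genes. Nsdhl was at 208, 216 and 204 CPM with rhCTHRC1, against 23.9, 23.5 and 20.3 CPM with vehicle (log2 3.19 ± 0.05, adjusted p = 2.66e-19). Fdps, which makes farnesyl diphosphate, was at 365, 363 and 354 CPM with rhCTHRC1 and 47.1, 47.7 and 44.7 CPM with vehicle (log2 2.94 ± 0.04, adjusted p = 7.29e-21). Both groups lay far apart. Acat2 rose by 2.74 ± 0.05, Tm7sf2 by 2.69 ± 0.11, Acss2 by 2.69 ± 0.07, Mvd by 2.62 ± 0.06 and Insig1 by 2.58 ± 0.04. Srebf1 rose by 1.93 ± 0.04, Srebf2 by 0.95 ± 0.03 and Insig2 by 0.52 ± 0.05. Acaca had 0.05 ± 0.04 and did not pass, although it did (0.23) when only library size was used for scaling. Scap fell by 0.14 (adjusted p = 0.00886). This direction turned when libraries were scaled by library size alone, to 0.045, with no call, and on the FPKM scale, to 0.047, and the call was lost without WT rhCTHRC1 replicate 2.

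These rises rest on the WT vehicle libraries, in which the module was low. Set against the mean of the other vehicle groups, WT vehicle was lower for 32 members and higher for 0, where 30.9% of genes were lower and 28.6% higher, and the members' median was -1.62. The summed module was 3787 ± 38.4 CPM in WT vehicle, against 10431 ± 197 CPM in Adam9-KO, 10144 ± 143 CPM in Rosa26-KO and 10376 ± 165 CPM in ADAM9i vehicle cells. The sterol branch, at 988 ± 6.23 CPM in WT vehicle, stood further below the 3904 to 4072 CPM of the other vehicle means than the fatty acid branch did, at 2114 ± 36.8 CPM against 4663 to 4886 CPM. The largest differences were those of Acat2 (-3.15 ± 0.04), Nsdhl (-3.11 ± 0.05), Fdps (-3.03 ± 0.03), Mvk (-2.94 ± 0.05), Mvd (-2.81 ± 0.05) and Idi1 (-2.76 ± 0.08). The call of Scap (-0.09) was lost with DESeq2, with RLE scaling or with no filter on low counts. It was also lost without WT vehicle replicate 1, 2 or 3. Acaca did not pass, at -0.01 ± 0.03. Beside this, WT vehicle libraries averaged 2464 ± 82.4 CPM of Hspa5, against means of 756 to 821 CPM for the other vehicle groups. Chac1 was at 421 ± 7.59 CPM there, against 30.8 to 65.1 CPM, and Mki67 at 175 ± 5.56 CPM, against 578 to 624 CPM. The 5 endothelial markers summed to 24.3 to 27.2 CPM there, against 2.46 to 5.80 CPM in other vehicle libraries. Most of that was Vwf (19.9 ± 1.39 CPM), while Cdh5 was at 0 counts in the WT vehicle libraries. The part of any of these in the low module was not tested.

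With other vehicle groups in place of WT vehicle, members of the module lay on both sides of 0 in the WT rhCTHRC1 libraries. Against Rosa26-KO vehicle 11 members were higher and 14 lower, where 24.4% of genes were higher and 25.7% lower. Against ADAM9i vehicle 8 were higher and 16 lower, where 24.6% and 25.8% of genes were, so the 8 were near the share over all genes. When only library size was used for scaling, the first count became 18 higher and 12 lower, and the second 13 higher and 12 lower. The module sum, 10380.5 ± 262 CPM in WT rhCTHRC1, was close to those of the other vehicle groups. Members higher in both were Tm7sf2, Dhcr7, Acss2, Scd1, Fads1, Fads2, Insig1 and Srebf1. Acss2 differed by 1.39 ± 0.08 from Rosa26-KO vehicle and 1.11 ± 0.07 from ADAM9i vehicle, Tm7sf2 by 1.06 ± 0.09 and 0.77 ± 0.09, and Insig1 by 0.85 ± 0.04 and 0.96 ± 0.04. Scd1 differed by 0.75 and 0.72, Fads1 by 0.63 and 0.62, and Srebf1 by 0.49 and 0.38. All 8 had also risen in Rosa26-KO cells, but 27 of all 33 members had. That response shares the Rosa26-KO vehicle libraries with the first of these comparisons. The call of Dhcr7 over ADAM9i vehicle was lost without ADAM9i vehicle replicate 1.

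The members lower in both were 14: Hmgcs1, Mvk, Idi1, Fdft1, Sqle, Cyp51, Msmo1, Hsd17b7, Sc5d, Acat2, Elovl6, Srebf2, Scap and Stard4. With scaling by library size only, and on the FPKM scale, Scap and Srebf2 lost this call over Rosa26-KO vehicle, and Msmo1 and Srebf2 over ADAM9i vehicle. The sign of Srebf2 over Rosa26-KO vehicle also turned, to 0.00016 with library size and 0.012 on the FPKM scale. Mvk was at 51.8, 51.3 and 48.4 CPM in WT rhCTHRC1, against 93.3, 95.3 and 91.9 CPM in Rosa26-KO vehicle (-0.89 ± 0.05) and 85.7, 92.9 and 92.2 CPM in ADAM9i vehicle (-0.84 ± 0.05). Hmgcs1 was at 186, 188 and 195 CPM in WT rhCTHRC1, against 335, 331 and 346 CPM in Rosa26-KO vehicle and 293, 333 and 328 CPM in ADAM9i vehicle. Neither gene's WT libraries overlapped those of the other vehicle groups. Idi1 differed by -0.83 and -0.65, Hsd17b7, a sterol ketoreductase, by -0.71 and -0.65, Sqle by -0.65 and -0.74, and Stard4 by -0.64 and -0.61. Of the 16 members lower than in ADAM9i vehicle, 12 had risen in Rosa26-KO cells, where 27 of all 33 members had. The groups contrasted in these 2 comparisons share no library, but the fit over ADAM9i vehicle used all 24 libraries. Of these 12, Mvd, Msmo1, Acly and Srebf2 lost the lower call over ADAM9i vehicle when only library size was used for scaling and on the FPKM scale. In these comparisons the treatment, the background and any difference in handling cannot be told apart. Between the treated groups, 29 members were higher and 1 lower in Rosa26-KO than in WT cells, where 18.3% of genes were higher and 14.1% lower. Hmgcs1 differed by 1.25 ± 0.05 and Hsd17b7 by 1.04 ± 0.06, while Acss2 (-0.17 ± 0.07) and Fads1 (-0.04 ± 0.03) did not pass. The 1 lower member was Insig2 (-0.20 ± 0.06).

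**Figure D4:**
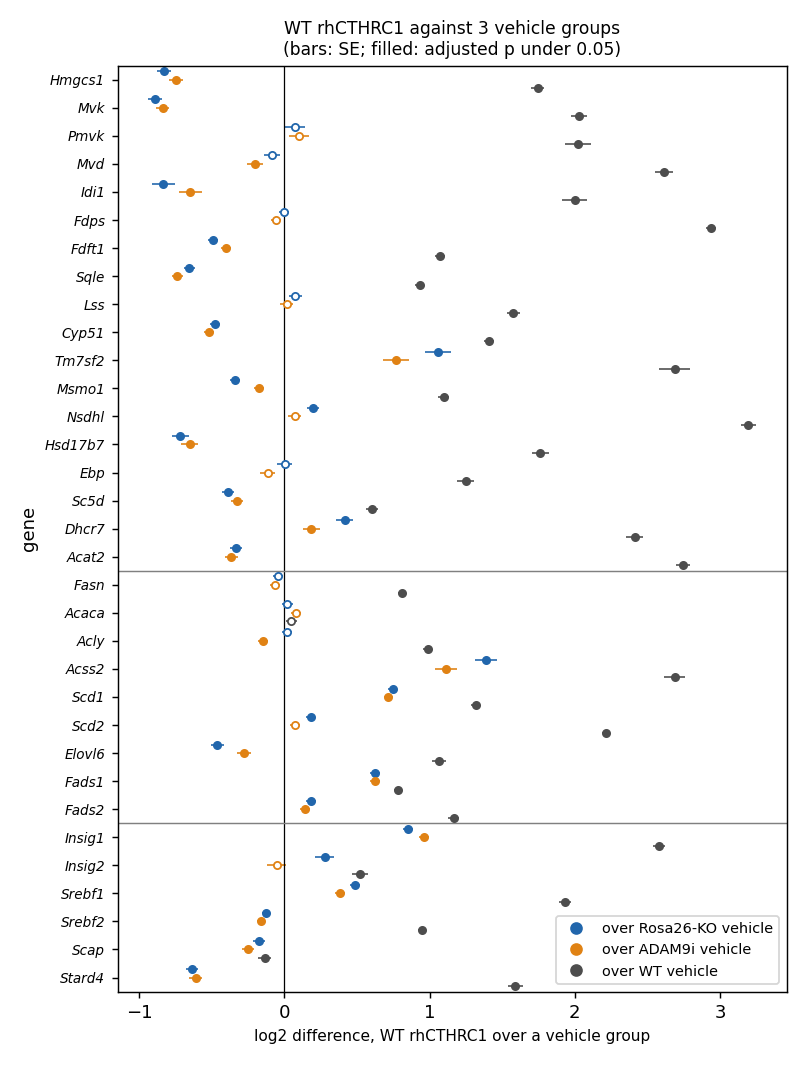
Log2 difference of WT rhCTHRC1 libraries over 3 vehicle groups for the 33 members, with SE. Filled points passed the adjusted threshold. Over WT vehicle nearly all points lie above 0, and over Rosa26-KO or ADAM9i vehicle they fall on both sides, with Acss2 and Insig1 high and Mvk and Hmgcs1 low.

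The ADAM9i and WT backgrounds carried the same dependence. Under vehicle 32 members were higher in ADAM9i than in WT cells and 0 lower, where 29.9% of genes were higher and 27.5% lower. The largest were Nsdhl (3.13 ± 0.05), Acat2 (3.11 ± 0.05) and Fdps (3.01 ± 0.04). Scap (0.13) lost its call without ADAM9i vehicle replicate 3. The response in ADAM9i minus that in WT was lower for 31 members and higher for 1, Scap, where 28.3% of genes were lower and 27.8% higher. The Scap difference (0.18 ± 0.06) turned to -0.011 when only library size was used for scaling, and its call was lost without ADAM9i rhCTHRC1 replicate 3. It was -3.11 ± 0.07 for Nsdhl, -2.89 ± 0.05 for Fdps and -2.63 ± 0.05 for Insig1. Between the treated groups, 19 members were higher and 8 lower in ADAM9i than in WT cells. The shares over all genes were 28% higher and 26.1% lower. This contrast holds no WT vehicle group, although its fit did. With the WT vehicle libraries left out of the fit, also chosen after seeing the data, 0 of these calls were lost. When only library size was used for scaling, 14 were higher and 12 lower. The higher members included Sqle (log2 0.87 ± 0.03, adjusted p = 2.36e-14), Hsd17b7 (log2 0.84 ± 0.05, adjusted p = 1.39e-10), Mvk (log2 0.84 ± 0.05, adjusted p = 7.50e-11), Idi1, Hmgcs1 and Cyp51. The 8 lower members were Tm7sf2, Dhcr7, Acss2, Scd1, Fads1, Fads2, Insig1 and Srebf1, led by Acss2 (log2 -1.06 ± 0.07, adjusted p = 9.83e-11) and Insig1 (log2 -1.01 ± 0.04, adjusted p = 5.46e-14). The call of Fads2 (-0.09 ± 0.04) was lost without ADAM9i rhCTHRC1 replicate 2 or WT rhCTHRC1 replicate 1 or 2.

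**Figure D5:**
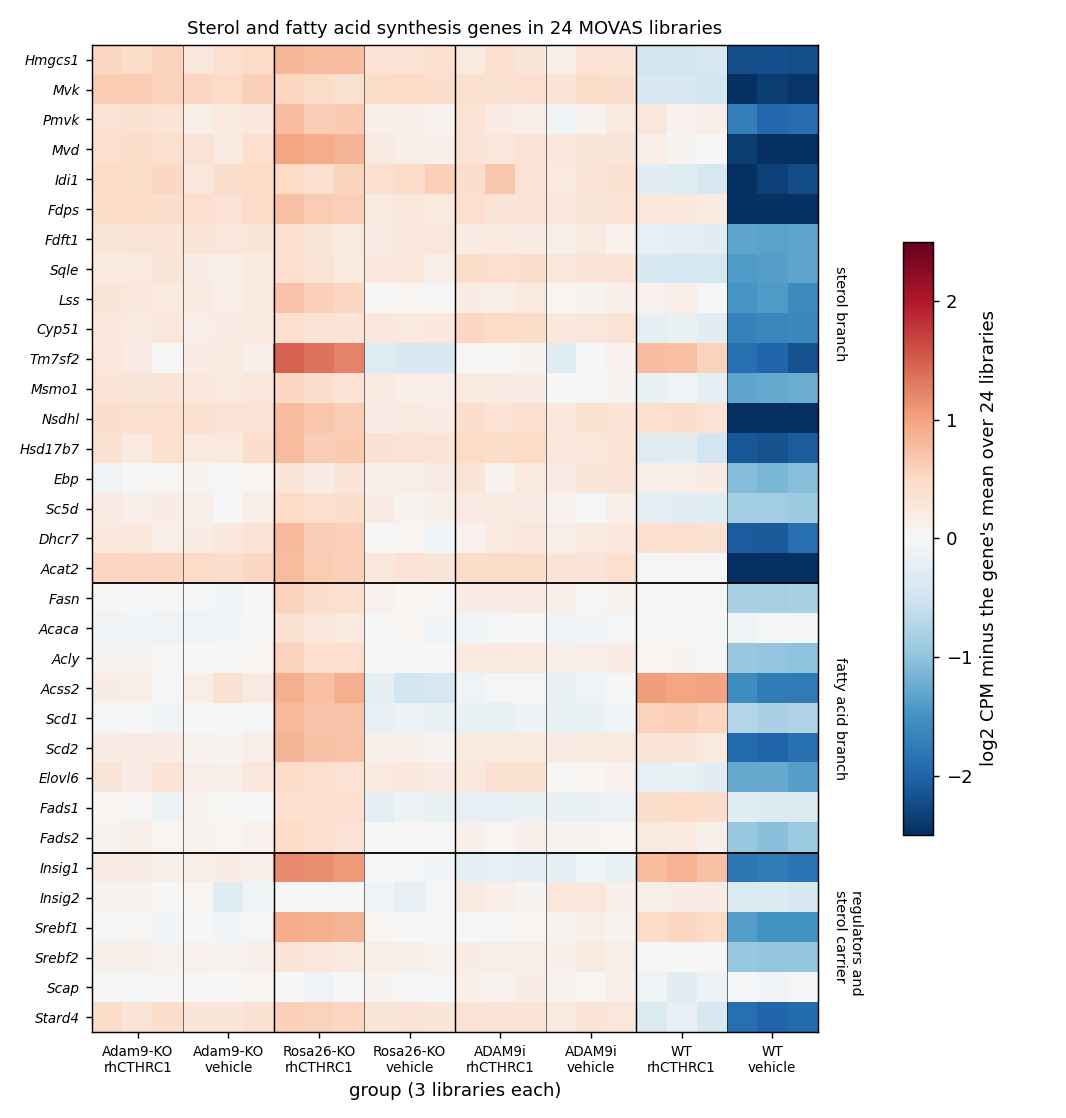
Levels of the 33 members in the 24 libraries, as log2 CPM minus the gene's mean over all libraries, with 3 libraries per group and lines between branches. The WT vehicle libraries are low in nearly all members, the Rosa26-KO rhCTHRC1 libraries are high in most, and the WT rhCTHRC1 libraries are high in Insig1, Acss2, Tm7sf2 and Scd1 and low in Hmgcs1, Mvk and Sqle.

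Genes around the module moved in several directions in Rosa26-KO cells. Of 13 other SREBP-linked genes, 7 were higher and 4 lower with rhCTHRC1, and for this and the next 5 lists the shares over all genes were 22% higher and 23.3% lower. Lpin1, a phosphatidate phosphatase, was at 44.7 ± 1.70 CPM with rhCTHRC1 and 16.9 ± 0.531 CPM with vehicle (1.40 ± 0.07), Pcyt2, of phosphatidylethanolamine synthesis, rose by 0.71 ± 0.04, and Tmem97, a sterol-responsive membrane protein gene, fell by 0.64. Of 6 tested genes of the LXR and sterol export list, 4 were higher and 0 lower, with a median log2 change of 0.56. Abca1, the cholesterol exporter, was at 119.7 ± 4.16 CPM with rhCTHRC1, against 22.3 ± 2.41 CPM with vehicle (log2 2.42 ± 0.09, adjusted p = 1.39e-13), and Mylip, a ubiquitin ligase induced by LXR, rose by 1.51 ± 0.08. In Adam9-KO cells Abca1 was at 11.5 ± 1.55 CPM with rhCTHRC1 and 13.6 ± 0.747 CPM with vehicle, and its interaction was -2.65 ± 0.12 (adjusted p = 1.73e-11). Of 15 genes that use isoprenoids, the side products of the mevalonate pathway, 0 were higher and 10 lower, with a median of -0.25. Among them were Pdss1, of ubiquinone side-chain synthesis, at -0.92 ± 0.09 and Rabggtb, a prenyltransferase subunit, at -0.66 ± 0.05. Of 9 genes of SREBP processing and sterol-dependent degradation, 2 were higher and 2 lower, near the shares over all genes. Of 9 sterol trafficking genes 4 were higher and 2 lower, and of 5 oxysterol genes 2 were higher and 1 lower. In Adam9-KO cells edgeR called 0 genes of these 6 lists with rhCTHRC1, but it also called 0 of all 18594 genes tested.

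In WT vehicle cells, Erlin1 and Ube2g2 had the largest differences from the other vehicle groups within the degradation list. Erlin1, which takes part in the sterol-dependent degradation of membrane proteins, was at 458 ± 8.69 CPM in WT vehicle, against 82.9 to 92.0 CPM in the other vehicle means (log2 2.41 ± 0.03, adjusted p = 1.48e-30). Ube2g2, a ubiquitin-conjugating enzyme of that route, was at 197 ± 4.02 CPM, against 60.4 to 71.0 CPM (log2 1.58 ± 0.03, adjusted p = 2.35e-25). Of the 9 genes in that list 5 were higher and 2 lower in WT vehicle, where 28.6% of all genes were higher and 30.9% lower.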

How the data were processed

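RNA of 24 MOVAS libraries was prepared with a stranded total RNA kit, per the labels' protocols. The authors deposited read counts per gene and FPKM values, and HISAT2, StringTie, DESeq2 and GRCm38 are named, without roles, per the submitters' processing notes. Strand use in counting is not given in the sources used here. Counts were tested with edgeR 4.0.16 (R 4.3.3) by the quasi-likelihood method after TMM scaling and filterByExpr, with Benjamini-Hochberg adjustment over all genes tested and a threshold of 0.05. The WT and ADAM9i libraries formed 1 fit, the Rosa26-KO and Adam9-KO libraries another, and comparisons across these pairs used all 24. FPKM were used to set genes side by side and in limma 3.58.1 on log2(FPKM + 1). DESeq2 1.42.0, other scalings, no filter, a replicate block and leaving out each library were alternatives. The pipeline was tested on simulated data for each of the fits. It recovered 35 to 39% of planted log2 changes of 0.5 and 98 to 100% of those of 1, with 2 to 9 false calls. Changes were planted in 100 genes of each size, as many up as down, with the same relative spread for all genes. Far more genes were called in most comparisons of the data. The simulation therefore cannot show error from scaling, and its recovery rates may not hold for these data. Promoter windows came from RefSeq tables. Figures used matplotlib 3.10.9.

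The members and the lists of related genes were chosen with earlier results of these data known. Full statistics were to be given for at most the 6 largest rises and 6 largest falls among called members, for Srebf1, Srebf2, Insig1 and Insig2 in the 4 responses, and for at most 3 called genes of each related list. Any other gene given with its value was chosen after its values were seen. With depths of 53135752 to 65833125 counts, every member had at least 225 counts in each library.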

Additional observations from a re-analysis of the deposited data

Results flagged for a closer look

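The responses to rhCTHRC1 differed between backgrounds by a direct test of the interaction in 3 pairs. Groups of 3 libraries are too small for a test of single stray libraries. For Adam9-KO minus Rosa26-KO, 24 members differed, and the differences of log2 responses were -1.72 for Tm7sf2, -1.36 for Acss2, -1.17 for Insig1, -0.94 for Scd1, -0.86 for Srebf1 and -0.71 for Dhcr7. For ADAM9i minus Rosa26-KO, 22 members differed, with -1.60 for Tm7sf2, -1.24 for Insig1, -1.18 for Acss2, -0.99 for Srebf1, -0.94 for Scd1 and -0.71 for Mvd. For ADAM9i minus WT, 31 members were lower and 1 higher, with -3.11 for Nsdhl, -2.89 for Fdps, -2.65 for Acss2, -2.63 for Insig1, -2.63 for Acat2, -2.57 for Mvd and 0.18 for Scap. The last set rests on the WT vehicle libraries, which stood apart from all others.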

How the results depend on the processing

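Scaling by library size alone and limma on FPKM each shifted the median log2 change of all genes by 0.18 in the WT response and by -0.19 in the ADAM9i minus WT difference. Under both, Scap turned in the WT response (0.045 and 0.047) and in the ADAM9i minus WT difference (-0.011 and -0.013), leaving 0 members lower in the one and 0 higher in the other. Both gave WT rhCTHRC1 18 higher and 12 lower members over Rosa26-KO vehicle, 13 and 12 over ADAM9i vehicle, and ADAM9i 14 higher and 12 lower than WT with rhCTHRC1. In Rosa26-KO against WT with rhCTHRC1, 2 members were lower by library size, DESeq2 or a fit on those groups only, and 3 by FPKM. FPKM left 3 members higher in the ADAM9i response, DESeq2 gave 7, and DESeq2 gave 1 lower member, Ebp, between vehicles of Adam9-KO and Rosa26-KO. The cause was not tested. Leaving out single libraries gave 25 to 28 higher members in the Rosa26-KO response and 22 to 24 lower in its difference from Adam9-KO. The ADAM9i response had 3 to 5 higher, the WT response 0 to 1 lower, and ADAM9i minus WT 0 to 1 higher. With rhCTHRC1 in both groups, Adam9-KO against Rosa26-KO had 0 to 1 higher and 24 to 28 lower. Likewise treated, Rosa26-KO against WT had 0 to 1 lower, and ADAM9i against WT 18 to 20 higher and 7 to 9 lower. Between vehicles, 2 to 7 members were higher in ADAM9i than in Rosa26-KO and 31 to 32 higher in ADAM9i than in WT. WT vehicle against the other vehicle groups had 31 to 32 lower. Same-numbered libraries did not deviate together (0 of 18 pairs with a correlation over 0.1 in either pair of backgrounds), and with a replicate block 27 members were higher in the Rosa26-KO response and 24 lower in its difference from Adam9-KO.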
